A study of Rattus norvegicus with 12 samples.

Results

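Intermediate filament genes were followed across an array experiment in the rat line PC12, which derives from a pheochromocytoma, a tumour of the adrenal medulla. The 10 genes were chosen by name, with earlier results of these data known. They were the neuronal filament genes Ina, Prph, Nefl, Nefm and Nefh, the vimentin gene Vim, the nestin gene Nes, and the simple epithelial keratin genes Krt7, Krt8 and Krt18. On the array 12 features (transcript clusters) carried 1 of these symbols, and for each gene the feature with the highest mean over the 12 arrays was used. All 10 passed the filter on low values and were tested among 34422 features kept of 68842, which cover 15313 named genes. The 12 arrays fall into 4 groups of 3. All cells carry an inducible, GFP-tagged exon-1 fragment of huntingtin with 74Q, a cell model of Huntington disease. Non-induced cells received the vehicle DMSO, and induced cells received doxycycline at 1 µg/ml with DMSO, with compound 3 at 10 µM or with compound 6 at 10 µM for 48 hours. The series title calls the compounds guanabenz analogues; the labels name neither the promoter nor whether the line is 1 clone. No group had doxycycline without the fragment, so what either does by itself cannot be told apart.

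Intermediate filaments are ropes of coiled-coil proteins that give a cell its mechanical strength, and cell types differ in which of them they make. Mature neurons assemble neurofilaments from the light, medium and heavy chains together with α-internexin or peripherin, and spacing and calibre of axons depend on them. Simple epithelia and some endocrine cells use keratins, which form only as pairs of a type I chain such as keratin 18 with a type II chain such as keratin 8 or keratin 7. PC12 cells are of neural crest lineage and extend neurites when given nerve growth factor.

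The 5′ flanks of the members that moved are shown first, since Krt8 and Krt18 moved together and are near neighbours in the rat genome. RefSeq lists 1 gene, a long non-coding RNA, between them on chromosome 7. Whether their nearness has a part in the shared change was not tested. The promoter table held 6 of the 10 members, and Nefl, Nefm, Nefh and Krt7 had no entry. Each sequence below is the 250 bases before the annotated start in RefSeq's GRCr8 assembly, 5′ to 3′ on the gene's strand. The positions are chr7:135010340-135010589 (minus strand) for Krt8, chr7:135035918-135036167 (plus) for Krt18, chr7:132097039-132097288 (plus) for Prph and chr1:255837879-255838128 (plus) for Ina. Capitals mark motif matches on either strand.
Krt8: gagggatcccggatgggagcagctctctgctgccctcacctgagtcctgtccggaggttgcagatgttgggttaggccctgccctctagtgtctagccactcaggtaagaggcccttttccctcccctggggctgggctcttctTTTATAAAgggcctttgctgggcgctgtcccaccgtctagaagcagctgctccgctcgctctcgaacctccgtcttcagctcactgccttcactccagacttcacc
Krt18: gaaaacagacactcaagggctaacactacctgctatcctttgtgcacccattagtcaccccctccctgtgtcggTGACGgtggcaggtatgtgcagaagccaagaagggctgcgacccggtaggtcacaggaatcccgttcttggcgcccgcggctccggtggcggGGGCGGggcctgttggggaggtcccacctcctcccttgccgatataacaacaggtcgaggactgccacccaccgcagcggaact
Prph: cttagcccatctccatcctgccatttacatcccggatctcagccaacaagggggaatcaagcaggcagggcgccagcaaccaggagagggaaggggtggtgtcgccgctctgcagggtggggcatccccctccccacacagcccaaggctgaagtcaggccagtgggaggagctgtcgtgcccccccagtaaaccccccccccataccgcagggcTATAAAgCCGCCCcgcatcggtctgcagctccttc
Ina: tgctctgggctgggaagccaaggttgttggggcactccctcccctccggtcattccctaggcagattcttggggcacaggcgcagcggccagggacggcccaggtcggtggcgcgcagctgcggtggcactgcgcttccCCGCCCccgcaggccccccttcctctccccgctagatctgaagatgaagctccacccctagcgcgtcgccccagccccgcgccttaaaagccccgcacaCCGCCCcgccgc
Both strands were searched for 5 motifs. The TATA box was searched as TATAAA. Its letters were in the windows of Krt8, Prph and Vim, 3 of 6, and in 12.9% of 33469 promoters. The Krt8 window holds them on both strands in 1 overlapping stretch, 106 to 99 bases before the annotated start, and the Prph window 35 to 30 bases before it. The GC box was searched as GGGCGG, and it was in 5 of 6 windows, all but that of Krt8, against 30.5% of promoters. The core of the cyclic AMP response element (CRE), TGACG, was in the Krt18 window alone of the 6, 176 to 172 bases before the start, against 18.2% of promoters. The full CRE, TGACGTCA, which contains the core, was in 0 of the 6 windows and in 1.59% of promoters. The AP-1 site was searched as TGANTCA and was in 0 of the 6 windows and in 6.34% of promoters. A match describes letters in a window and is not evidence of binding.

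Across the whole table the arrays were close, with correlations of 0.995 to 0.998 and medians of 4.61 to 4.70 log2 units. At the bright end, the 95th percentile of the non-induced arrays was 10.29 to 10.32, that of induced DMSO 1, 2 and 3 was 10.32, 10.18 and 10.09, and compound arrays had 10.18 to 10.27. This difference touches the members with high values, Ina, Prph, Krt8 and Krt18, and its part in their changes was tested only by rescaling the arrays. Of the markers that check the labelled cell type, the chromaffin genes Th, Chga and Chgb had 12-array means of 12.15, 12.15 and 12.31, while the adrenaline-forming enzyme Pnmt lay at 5.43. The Schwann cell factor Sox10 lay between 5.45 and 5.71 on the 12 arrays. The fibroblast genes Dcn and Lum lay under the filter on low values, at means of 3.13 and 2.26. They are the lowest of 18 mesenchymal genes on the array, of which 14 passed that filter, among them Thy1 (11.22), Zeb1 (8.60) and Cdh2 (7.18). Of 20 epithelial genes on the array 18 passed it, among them Spint1 (10.32) and Epcam (9.30). These markers therefore do not settle which cell types are present. In a bulk sample, fewer cells of a type and less RNA per cell cannot be told apart.

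**Figure D1:**
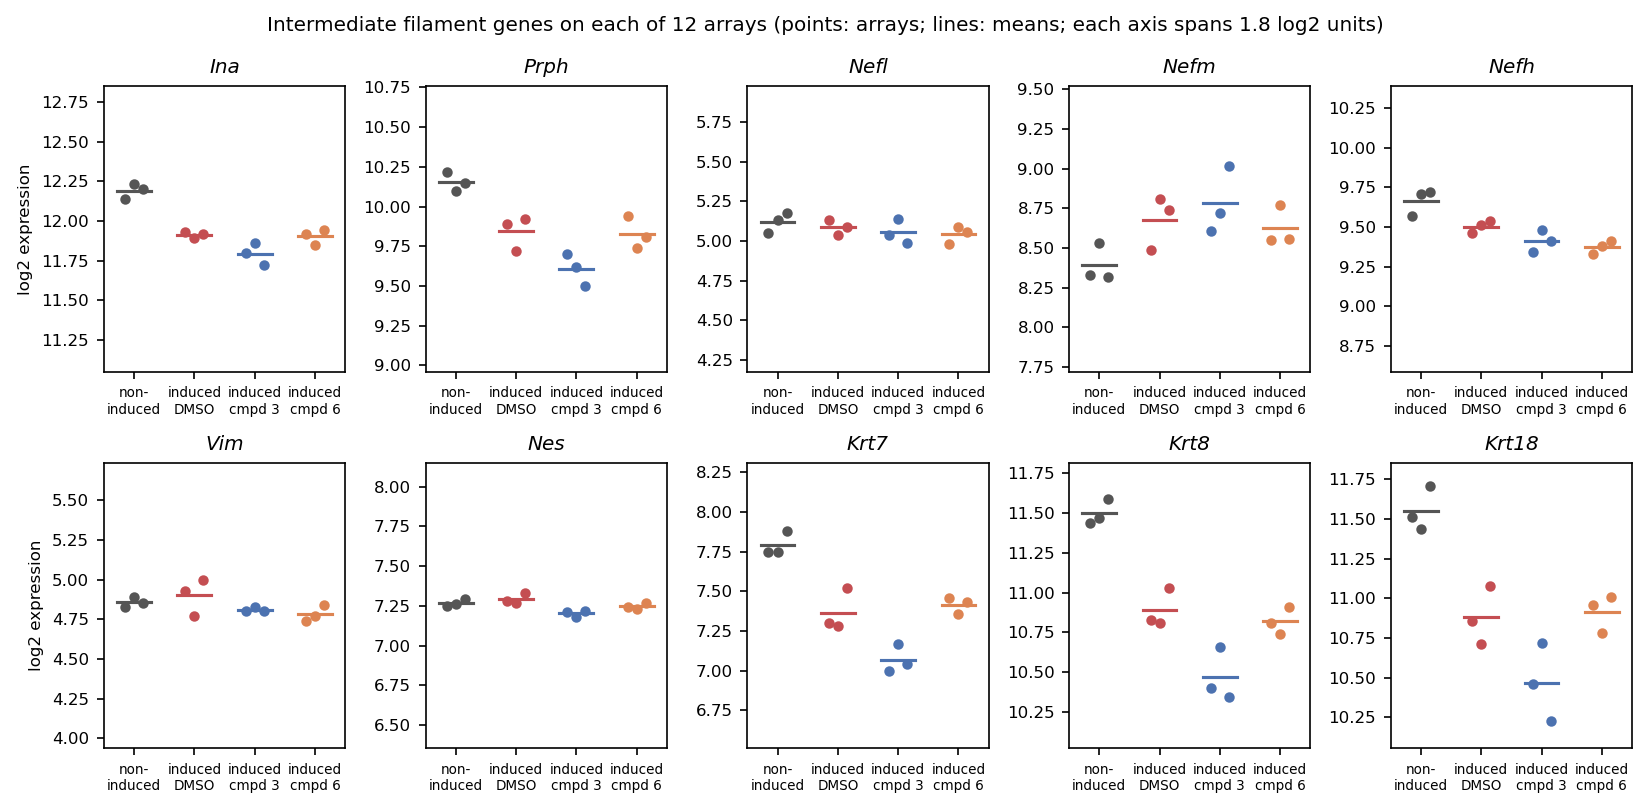
Log2 expression of each of the 10 genes on every array, by group, with 3 arrays a group as points and the group mean as a line. Every vertical axis spans the same number of log2 units. The 3 keratin genes show the widest steps between groups, and Vim, Nes and Nefl the narrowest.

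All 3 keratin genes and the neuronal filament genes Ina and Prph were lower in induced than in non-induced cells, both in DMSO. Krt18 fell 1.59-fold, Krt8 1.53-fold, Krt7 1.34-fold, Prph 1.24-fold and Ina 1.21-fold. In all 5 of 10 members fell and 0 rose, where 9.06% of all features changed (4.86% fell and 4.2% rose). All members but Nefl and Vim lay above the 75th percentile of feature means. With the filter set at that percentile, 3446 of 17216 features changed. The members were chosen with earlier results of these data known, so their count beside these shares is a description and not a test. Non-induced and induced arrays did not overlap for 6 members (22.7% of all features), the 6th being Nefh. The median difference of the 10 was -0.22, and of all features 0.01. Differences are in log2 units from limma, with ± for the standard error and p-values adjusted over all features by Benjamini-Hochberg; a gene counts as changed at an adjusted p under 0.05.

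The keratins fell most. Krt8, the type II keratin of simple epithelia, read 11.44, 11.47 and 11.59 on the non-induced arrays and 10.83, 10.81 and 11.03 on the induced DMSO arrays. Every induced array lay under every non-induced one, and the fall was 0.61 ± 0.090 (adjusted p = 0.00147). Krt18, the type I partner of keratin 8, read 11.51, 11.44 and 11.71 without induction and 10.86, 10.71 and 11.08 with it. These groups were apart as well, with a fall of 0.67 ± 0.13 (adjusted p = 0.00694). Krt7, a type II keratin of ducts and glands, read 7.75, 7.75 and 7.88 against 7.30, 7.28 and 7.52 and fell by 0.43 ± 0.073 (adjusted p = 0.00338).

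The partners Krt8 and Krt18 kept step across all 12 arrays. The difference of their log2 values stayed between -0.15 and 0.11, and its group means shifted by -0.04 to 0.06 from the non-induced mean. In the values as deposited Krt7 fell less than Krt8. The difference Krt8 minus Krt7 was lower by 0.18 in induced DMSO cells and by 0.31 and 0.30 with compounds 3 and 6. Its ranges did not overlap between non-induced arrays and any induced group. After quantile normalisation Krt7 fell slightly more than Krt8 in induced DMSO cells, with the values given further below. These pairs were compared after their values had been seen, so no test is given.

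For Krt18 and Krt7 a second feature carried the symbol, and it showed the same direction. The second Krt18 feature read 8.85, 9.04 and 9.10 without induction and 8.41, 8.08 and 8.23 with it, a fall of 0.76 ± 0.12 (adjusted p = 0.00264). The second Krt7 feature fell by 0.25 ± 0.056 (adjusted p = 0.0167), with 5.93, 5.95 and 5.98 against 5.76, 5.66 and 5.70. By its identifier the second Krt18 feature lies on chromosome 2, whereas Krt18 lies on chromosome 7, and the second Krt7 feature is unmapped. RefSeq lists 6 pseudogenes and 1 further gene named after Krt18, and 1 pseudogene named after Krt8. Whether probes of these features bind such copies was not tested. The second features may therefore measure another gene and are not separate support for Krt18 and Krt7.

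Among the neuronal filament genes, Ina and Prph fell. Ina, which encodes α-internexin, a filament protein of developing and mature neurons, read 12.14, 12.23 and 12.20 on the non-induced arrays. On the induced DMSO arrays it read 11.93, 11.89 and 11.92. The groups were apart, and the fall of 0.28 ± 0.049 (adjusted p = 0.00435) is small. Prph, the gene of peripherin, a filament of peripheral and autonomic neurons, read 10.22, 10.10 and 10.15 against 9.89, 9.72 and 9.92. It fell by 0.31 ± 0.074 (adjusted p = 0.0215) with no overlap of the groups.

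The 3 neurofilament chains did not pass the test. Nefm, the medium chain, read 8.33, 8.53 and 8.32 without induction and 8.49, 8.81 and 8.74 with it. Induced DMSO 1 lay within the non-induced range, and the difference was 0.29 ± 0.12 (adjusted p = 0.175). Nefh, the heavy chain, whose tail sets the spacing between filaments, read 9.57, 9.71 and 9.72 against 9.46, 9.51 and 9.54. The ranges did not overlap, with a difference of -0.16 ± 0.055 (adjusted p = 0.1). Nefl, the light chain on which neurofilaments are built, read 5.05, 5.13 and 5.18 against 5.13, 5.04 and 5.09. Those ranges overlap, and the difference was -0.03 (95% interval -0.16 to 0.09). Nefm and Nefh thus lay on opposite sides of 0, and their log2 difference moved by 0.45 after induction, from a range of -1.40 to -1.18 to one of -0.97 to -0.70, a contrast noticed after the values had been seen.

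Vimentin and nestin, the filaments of mesenchymal and of neural progenitor cells, stayed close to their non-induced values. Vim read 4.83, 4.89 and 4.85 against 4.93, 4.77 and 5.0, a difference of 0.04 (95% interval -0.08 to 0.17) whose sign turned with array weights or without induced DMSO 3. Its mean over all arrays, 4.84, is close above the filter of 4.63 log2 units, so little room for a fall was measured. Nes read 7.25, 7.26 and 7.29 against 7.28, 7.27 and 7.33, a difference of 0.03 (95% interval -0.06 to 0.11) whose sign turned after median scaling and after cyclic loess.

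**Figure D2:**
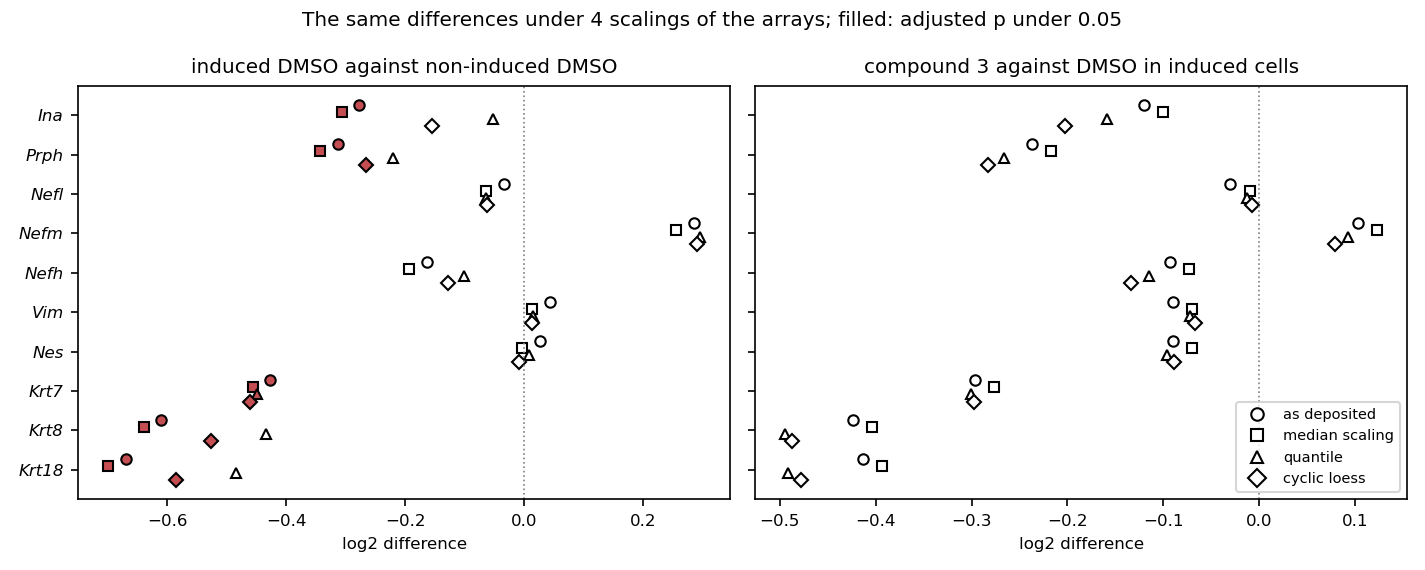
Log2 differences of the 10 genes after induction (left) and with compound 3 against DMSO (right) in the values as deposited and after 3 rescalings of the arrays. Filled symbols mark an adjusted p under 0.05. After quantile normalisation the fall of Krt7 alone passes, and Ina moves closest to 0.

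The calls in this comparison depended on how the arrays were scaled. After quantile normalisation only Krt7 passed (-0.45, adjusted p = 0.00309), while Krt8 lay at -0.43 (adjusted p = 0.0758), Krt18 at -0.49 (adjusted p = 0.0939), Prph at -0.22 (adjusted p = 0.112) and Ina at -0.05 (adjusted p = 0.709). After cyclic loess Ina lay at -0.16 (adjusted p = 0.28) and the other 4 passed. Of all 34422 features, 3217 passed after quantile normalisation and 2888 after cyclic loess. Prph was lost in 7 of the 23 alternatives, among them without non-induced 1, non-induced 3 or induced DMSO 2 (adjusted p = 0.0688, 0.0692 and 0.0936). In the other direction, Nefh passed in 4 alternatives (lowest adjusted p = 0.0383) and Nefm in 1 (adjusted p = 0.046). Against a minimum change of 1.5-fold 0 members passed, where 2 of 34422 features did.

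Compound 3 was compared with DMSO in induced cells, and 0 of 10 members passed, where 0.0232% of all features did (0.00581% higher and 0.0174% lower). Of the 10, 9 lay lower with the compound, and 6 had an unadjusted p under 0.05 in limma, against 7.29% of all features. The lean to lower values was not particular to the members. It also held for 20 of 24 further intermediate filament genes, 19 of 25 axonal genes and 14 of 18 epithelial genes. The median difference was -0.11 for the 10 members, -0.06 for the further filament genes and 0 for all features. Among the members the keratins had the widest differences. Krt8 read 10.40, 10.66 and 10.34 with compound 3, all under its lowest induced DMSO value, at -0.42 ± 0.090 (95% interval -0.62 to -0.23, adjusted p = 0.208). Krt18 read 10.46, 10.72 and 10.23, at -0.41 ± 0.13 (95% interval -0.70 to -0.13, adjusted p = 0.448). Its array compound 3 2 lay within the induced DMSO range. Krt7 read 7.0, 7.17 and 7.04, without overlap, at -0.30 ± 0.073 (95% interval -0.46 to -0.14, adjusted p = 0.295).

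The filament genes of neurons gave smaller differences from DMSO with compound 3. Prph read 9.70, 9.62 and 9.5, under all induced DMSO arrays, at -0.24 ± 0.074 (adjusted p = 0.451). Ina read 11.80, 11.86 and 11.72, also without overlap, at -0.12 ± 0.049 (adjusted p = 0.624). Nefm was the 1 member above 0, with 8.61, 8.72 and 9.02 and a difference of 0.10 ± 0.12 (adjusted p = 0.851). Without compound 3 array 3 or with array weights it lay at -0.015 and -0.0046, so its sign is not settled. Nefh, Nefl, Vim and Nes differed by -0.09, -0.03, -0.09 and -0.09, and of these Nes, at 7.21, 7.18 and 7.22, did not overlap. In all 5 members did not overlap, where 9.94% of all features did not.

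Compound 6 left the members near the level of induced DMSO cells. In that comparison 0 of 10 passed, where 0.00291% of all features did, and 1 member, Nefh, had an unadjusted p under 0.05, against 5.66% of features. Krt8 read 10.81, 10.74 and 10.91 with compound 6, a difference of -0.07 (95% interval -0.27 to 0.13). Krt18 read 10.96, 10.78 and 11.01, a difference of 0.03 (95% interval -0.25 to 0.32) whose sign turned after quantile normalisation, and Krt7 read 7.46, 7.36 and 7.43, a difference of 0.05 (95% interval -0.11 to 0.21). All 3 overlapped the induced DMSO arrays. Ina (11.92, 11.85 and 11.94) and Prph (9.94, 9.74 and 9.81) lay at -0.01 each, with a sign that turned after median scaling. Nefh read 9.33, 9.38 and 9.41, under all induced DMSO arrays, at -0.13 ± 0.055 (adjusted p = 0.876). The interval for Prph ran from -0.18 to 0.15 and that for Ina from -0.12 to 0.10.

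**Figure D3:**
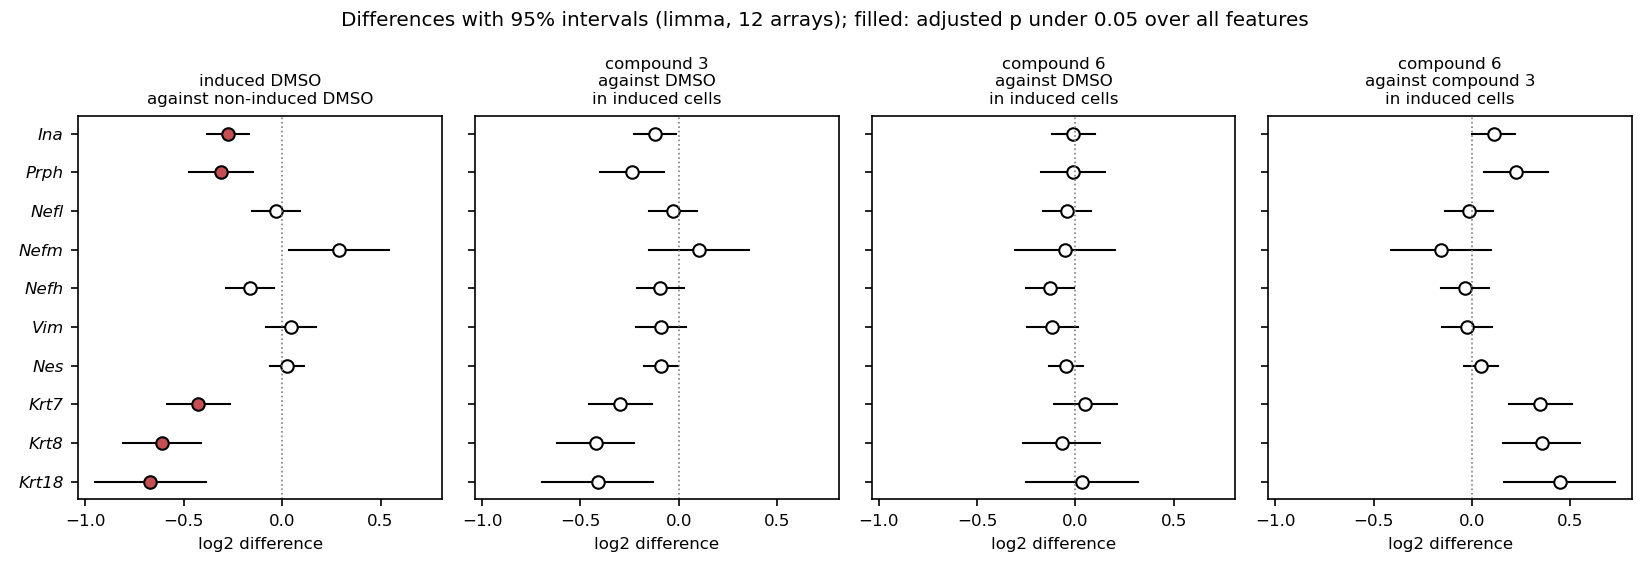
Log2 differences of the 10 genes (points) with 95% intervals (lines) in 4 comparisons. Filled points have an adjusted p under 0.05 over all features. All 5 filled points belong to induction, and the keratin intervals lie under 0 for compound 3 and across 0 for compound 6.

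Compounds 3 and 6 were also set against each other at the same dose and time, and in that comparison 0 of 10 members passed, where 0.0436% of all features did (0.0232% higher and 0.0203% lower). Krt18 lay 0.45 ± 0.13 higher with compound 6 (95% interval 0.16 to 0.73, adjusted p = 0.29), Krt8 0.35 ± 0.090 (95% interval 0.16 to 0.55, adjusted p = 0.214) and Krt7 0.35 ± 0.073 (95% interval 0.19 to 0.51, adjusted p = 0.143). All compound 6 arrays lay over all compound 3 arrays for these 3 genes, for Prph (0.22 ± 0.074, adjusted p = 0.38) and for Nes (0.04 ± 0.039, adjusted p = 0.895). That made 5 members without overlap, where 14% of all features had none, and 5 members had an unadjusted p under 0.05 in limma, where 8.14% of features did. The comparison shares its compound 3 arrays with that of compound 3 against DMSO. These counts are therefore a description and not separate support. With array weights Krt7 passed (0.34, adjusted p = 0.0487), among 133 of 34422 features that did. For Nefl, Nefh and Vim the differences were -0.01, -0.04 and -0.03, with intervals within -0.16 to 0.11, and for Nefm -0.16 (95% interval -0.41 to 0.10).

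Set against non-induced cells, both compound groups kept low keratin values. These comparisons share the non-induced arrays with the induction comparison, so their calls are not separate support. In the compound 3 group 6 members fell and 1 rose, where 15.2% of features changed (6.82% fell and 8.34% rose). Krt18 fell by 1.08 ± 0.13 (adjusted p = 0.000223), which is 2.12-fold, Krt8 by 1.03 ± 0.090 (adjusted p = 3.9e-05), which is 2.05-fold, and Krt7 by 0.72 ± 0.073 (adjusted p = 8.65e-05), which is 1.65-fold. Prph fell by 0.55, Ina by 0.40 and Nefh by 0.26 (adjusted p = 0.000498, 0.000296 and 0.00845).

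The gene that rose with compound 3 was Nefm, by 0.39 ± 0.12 (adjusted p = 0.0428), with all 3 compound arrays over all non-induced ones. That call is weak: it was lost in 11 of 23 alternatives, among them those without non-induced 1 or 3 (adjusted p = 0.111 and 0.145) or compound 3 array 2 or 3 (0.0713 and 0.164), or compound 6 array 1 or 3 (0.0571 and 0.0586). In the compound 6 group 6 members fell and 0 rose, where 7.68% of features changed (4.1% fell and 3.58% rose). Krt8 fell by 0.68 ± 0.090 (adjusted p = 0.00163), Krt18 by 0.64 ± 0.13 (adjusted p = 0.012) and Krt7 by 0.38 ± 0.073 (adjusted p = 0.00979). Prph, Ina and Nefh fell by 0.33, 0.29 and 0.29 (adjusted p = 0.0209, 0.0056 and 0.00889), and Nefm lay at 0.23 ± 0.12 (adjusted p = 0.315). Without non-induced 3 the count was 3, with Krt7, Krt18 and Prph lost (adjusted p = 0.0507, 0.0595 and 0.0711). After quantile normalisation it was also 3, with Ina, Prph and Krt18 lost. Of 34422 features, 1210 passed without non-induced 3 and 2398 after quantile normalisation.

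The order of the group means differed between members. Non-induced cells had the highest mean and compound 3 the lowest for 5 of the 10, Ina, Prph and the 3 keratins. Compound 3 was also lowest for Nes, 6 members in all, and compound 6 for 3, Nefl, Nefh and Vim. Non-induced cells had the lowest mean for Nefm. Induced DMSO and compound 6 were neighbours in the order for Ina, Prph and the keratins, and their arrays overlapped for each of these genes. In limma's F-test over all 4 groups 6 members differed (10.3% of features): Krt8 (adjusted p = 0.000289), Krt7 (0.00066), Krt18 (0.00163), Ina (0.00175), Prph (0.00347) and Nefh (0.0166). The Nefh call was lost in 5 of 21 alternatives, among them without non-induced 2 or 3 (adjusted p = 0.0889 and 0.0949).

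By the fixed measure of likeness, the root-mean-square distance of values centred on each gene's 12-array mean, Krt18 was the gene most like Krt8 and Krt8 the gene most like Krt18, at 0.0768 log2 units. Next came Insm1, a neuroendocrine transcription factor, for Krt8 (0.0781) and Cd9, a tetraspanin, for Krt18 (0.0824). These distances stand against spreads of 0.384 for Krt8 and 0.414 for Krt18 over the same arrays. Krt7 was closest to Ffar1, a receptor for free fatty acids (0.0471), and Dixdc1 (0.0515), Prph to Rcor2, a corepressor of the REST complex (0.0383), and Nsg1, a neuronal vesicle protein (0.0413). Ina was closest to Ankrd6 (0.0281) and Hmgn2, a nucleosome-binding protein (0.0376), and Nefh to Ints3 (0.0421) and Ppp2r2c (0.0454).

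Other genes of the filament system were measured too. Of 24 further intermediate filament genes, 2 rose and 1 fell after induction, beside the 9.06% of all features that changed, with a median of -0.005. The median changed sign between alternatives, from -0.12 to 0.02. Iffo1, an intermediate-filament-like gene, rose by 0.28 ± 0.053 (adjusted p = 0.006), the muscle filament gene Des rose by 0.19 ± 0.042 (adjusted p = 0.0149), and Lmna, which encodes the A-type lamins of the nuclear envelope, fell by 0.20 ± 0.046 (adjusted p = 0.0207). Des and Lmna were each lost in 7 alternatives. Krt19, another type I keratin of simple epithelia, lay at a mean of 5.05 and did not pass (0.07, adjusted p = 0.525). Of 14 linker and turnover genes 2 rose and 1 fell (median -0.04). Fam83h, which recruits casein kinase to keratins, rose by 0.45 ± 0.075 (adjusted p = 0.00273), the junction plaque gene Pkp4 rose by 0.31 ± 0.055 (adjusted p = 0.00448), and Syne3, a nuclear envelope protein that binds plectin, fell by 0.25 ± 0.051 (adjusted p = 0.00928).

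Axonal microtubule and growth cone genes were measured beside the neuronal filaments. Of 25, 3 fell and 0 rose after induction, where 4.86% of all features fell and 4.2% rose. The median of the 25 was -0.07 (0.01 after quantile normalisation), and of all features 0.01. Dpysl3 and Dpysl5, collapsin response mediators of the growth cone, fell by 0.48 ± 0.058 (adjusted p = 0.000625) and, for Dpysl5, 0.29 ± 0.044 (adjusted p = 0.00171). Kif3a, a kinesin gene, fell by 0.22 (adjusted p = 0.0258).

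Against non-induced cells, the compound groups had further calls in these lists. With compound 3, 8 of the 25 axonal genes fell, from Dpysl3 (-0.86) to Kif5c (-0.16), with Dpysl5, Tubb3, Kif3a, Sptbn1, Stmn1 and Crmp1 between them, and Ank2, an adaptor of the axonal membrane skeleton, rose (0.54). Of all features 6.82% fell and 8.34% rose with compound 3. With compound 6, Dpysl3 (-0.52), Dpysl5 (-0.25) and the neuronal tubulin gene Tubb3 (-0.20) fell and 0 rose, where 4.1% of all features fell and 3.58% rose. Of the other filament genes, Lmna fell with compound 3 (-0.35) and compound 6 (-0.33), Krt4 fell with both (-0.40 and -0.25), and Des rose with both (0.25 and 0.27). Lmnb1, a B-type lamin, fell (-0.31) and Iffo1 rose (0.25) in the compound 3 group. Of the linker genes, Pkp4 (0.38 and 0.29) and Fam83h (0.50 and 0.28) rose and Syne3 (-0.37 and -0.26) fell with compounds 3 and 6. Adjusted p-values in limma for these genes were under 0.05.

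**Figure D4:**
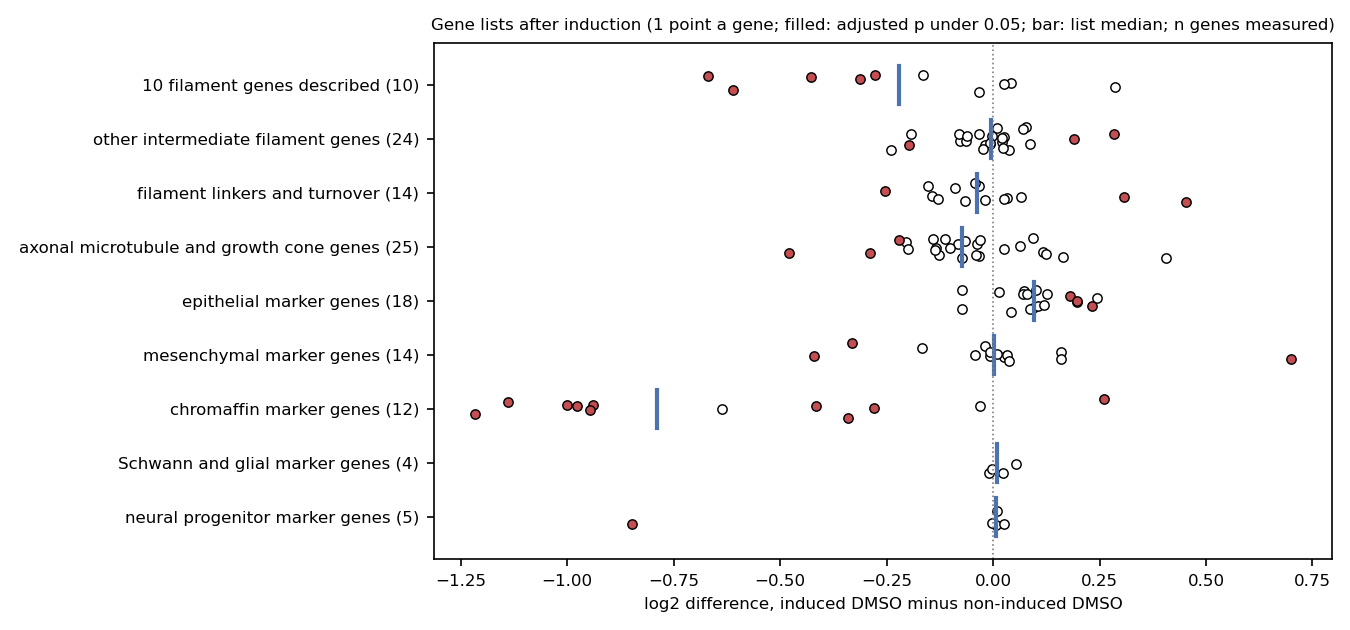
Log2 difference after induction for every measured gene of the lists, 1 point a gene, filled where the adjusted p is under 0.05, with the list median as a bar. The 10 filament genes lie lower at the median than the other filament, linker, axonal, epithelial and mesenchymal lists, and the chromaffin list lies lowest.

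Other epithelial genes were measured beside the keratins. Of 18 epithelial marker genes 3 rose and 0 fell after induction, where 4.2% of all features rose and 4.86% fell. Of the 18, 16 lay above 0, with a median of 0.10 against 0.01 for all features. The adhesion gene Cdh3 rose by 0.23 ± 0.044 (adjusted p = 0.00591) and the epithelial transcription factor Grhl2 by 0.20 ± 0.044 (adjusted p = 0.0163), which did not pass in 7 of the 23 alternatives. Epcam, a cell surface marker of epithelia, lay at -0.07 (adjusted p = 0.571). Summed levels, here and below, add all genes of a list on the array, also those under the filter on low values. For the 20 epithelial genes the summed linear level was 4800 to 5020 on non-induced arrays, 5180 to 5360 on induced DMSO arrays, 5110 to 5280 with compound 3 and 5190 to 5310 with compound 6. Against non-induced cells Esrp2 (0.22) and Grhl2 (0.16) rose with compound 3, and the junction gene Cldn3 (0.31) and Cdh3 (0.22) rose with compound 6.

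Chromaffin genes moved with the keratins, Ina and Prph. Of 12 measured 9 fell and 1, Gata3, rose after induction (median -0.79), where 4.86% of all features fell and 4.2% rose. The lineage factors Phox2a and Hand2 were lower by 1.00 ± 0.12 (adjusted p = 0.000635) and 0.94 ± 0.11 (adjusted p = 0.000508). The Gata3 rise of 0.26 (adjusted p = 0.0471) was lost in 17 of 23 alternatives. The summed linear level of this list ran from 24400 to 26200 on non-induced arrays, 15800 to 18800 on induced DMSO arrays, 10600 to 15100 with compound 3 and 16500 to 20100 with compound 6. Like the keratins it was lowest with compound 3, where 11 of the 12 lay under DMSO and 0 passed. Against non-induced cells 10 of the 12 fell with compound 3: Slc18a1 (-1.98), Dbh (-1.94), Ddc (-1.66), Ret (-1.39), Phox2a (-1.35), Hand2 (-1.28), Th (-1.14), Chga (-0.79), Chgb (-0.63) and Gata2 (-0.35). Gata3 rose (0.29). With compound 6, 4.1% of all features fell and 3.58% rose. Of the 12 chromaffin genes 8 fell there: Dbh (-1.41), Phox2a (-0.98), Slc18a1 (-0.96), Ret (-0.86), Hand2 (-0.73), Chga (-0.44), Chgb (-0.34) and Gata2 (-0.29). The part of these chromaffin changes in the filament values was not tested.

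Lists of other cell types were measured as well, and of their genes Krt19 and Gfap also stand in another list. Of 14 mesenchymal genes 1 rose and 2 fell after induction, beside 9.06% of all features (median 0.00, with 7 above and 7 below 0): the transcription factor Snai2 rose by 0.70 ± 0.13 (adjusted p = 0.0052), and the repressor Zeb1 and the surface protein Thy1 fell by 0.42 ± 0.084 (adjusted p = 0.00873) and, for Thy1, 0.33 ± 0.067 (adjusted p = 0.0099). The summed linear level of the 18 mesenchymal genes on the array was 4350 to 4530 on non-induced arrays, 3560 to 3960 on induced DMSO arrays, 2980 to 3140 with compound 3 and 3490 to 3800 with compound 6. Most of that sum was Thy1, at 3020 to 3190, 2270 to 2680, 1720 to 1860 and 2240 to 2520 in the same groups, and the sum without Thy1 was 1330 to 1340, 1270 to 1290, 1240 to 1280 and 1250 to 1280. The part of Thy1 in the filament values was not tested. Against non-induced cells Thy1 fell with compounds 3 and 6 (-0.80 and -0.41), and with compound 3 Zeb1 fell (-0.38) and Snai2 rose (0.65). Of 4 Schwann and glial genes tested 0 changed, at an adjusted p under 0.05 in limma. The summed level of the 6 on the array was 163 to 174 on non-induced and 163 to 183 on induced DMSO arrays. Of 5 neural progenitor genes, the cells in which nestin is the classical filament, 1 fell: Hes1, an effector of Notch signalling, by 0.85 ± 0.056 (adjusted p = 9.03e-05), and it fell against non-induced cells with compound 3 (-0.85) and compound 6 (-0.66). The summed level of the 7 progenitor genes on the array was 632 to 645 on non-induced arrays, 574 to 617 on induced DMSO arrays, 549 to 560 with compound 3 and 579 to 616 with compound 6. After induction the median of the 5 tested was 0.0067, with 3 above and 2 below 0. The lower sum on induced DMSO arrays is thus not a fall shared by the list, and the part of Hes1 in it was not separated. In the comparisons of a compound with DMSO or with the other compound 0 genes of any of these lists passed.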

How the data were processed

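RNA of 12 samples (250 ng each) was biotin-labelled and run on Affymetrix Rat Transcriptome Arrays, 1 sample an array. Values are log2 summaries of each transcript cluster, which the authors made with Affymetrix Expression Console and RMA, per the submitters' processing notes; versions and options are not given in the sources used here. Such summaries combine probes of unequal response, so levels compare only roughly between genes. The ranks by level, percentiles and summed levels given here carry that limit. Groups and replicate numbers come from the labels, which do not say that replicates are separate cultures: p-values then reflect only the spread of these samples, and that may be technical. The reported fit has no block for the replicate number. All same-numbered pairs correlated over 0.1 in their deviations from the group means only between non-induced cells and compound 3. Between non-induced and induced DMSO cells all were above 0 as well (0.219, 0.0355 and 0.398). Of the array pairs 0 held identical values.

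Of 70580 features 1738 controls were left out. Kept were 34422 whose 12-array mean reached the median over features (4.63). Symbols came from the platform's annotation, with names updated through RefSeq's GRCr8 table (23446 features with 1 symbol, 505 with several, 44891 with none, 1 updated). Group means were fitted with limma 3.58.1 in R 4.3.3 (lmFit, contrasts.fit, eBayes without trend, 8 residual and 3.27 prior degrees of freedom), and p-values were adjusted by Benjamini-Hochberg over the features kept. The code was tested on simulated data. With 3 arrays a group, the standard error of a difference had a median of 0.072. Promoter windows are RefSeq's, GRCr8; proteins were not analysed here. Python 3.11.15, pandas 2.3.3 and matplotlib 3.10.9 served for motifs and figures.

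The members and gene lists were chosen with earlier results of these data known. Genes named beside the members followed a rule: from each list, after induction, up to 2 called genes that rose and 2 that fell, by smallest p, every called gene in a comparison of a compound group, and for each member past the F-test the 2 genes closest in pattern. Kif3a after induction, Krt19, Epcam, Gfap and the genes that check the cell type were named outside it, after their values were seen. The 23 alternatives were other filters, scalings, priors, weights, fits and gene summaries, a minimum change, a block for the replicate number, and leaving out each array.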

Additional observations from a re-analysis of the deposited data

How the results depend on the processing

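Each of the 10 members was refitted in every comparison under up to 23 alternatives (21 for the F-test). Of 1576 such values 1491 kept their direction and side of the threshold, 56 lost a call, 6 gained one and 23, none of them called before or after, changed sign. Some alternatives could not turn a sign: filters, priors, the minimum change, and leaving out an array outside the comparison. Averaging a gene's features could not change the difference of a member with 1 feature. The 1491 is therefore not a measure of stability. The number of members called after induction, 5 as reported, was 1 after quantile normalisation and 0 against a minimum change of 1.5-fold, and ran from 4 to 5 when single arrays were left out. Of 34422 features, 3217 passed after quantile normalisation and 2 against the minimum change. For compound 3 against non-induced cells the count of 7 became 0 against that minimum change, which 82 of 34422 features passed. Of those 7, Nefm was lost in 11 of 23 alternatives, some of them with single arrays left out. The other called members were lost only against the minimum change. For compound 6 against non-induced cells the count of 6 became 3 after quantile normalisation and 0 against the minimum change, and ran from 3 to 6 when single arrays were left out. There 2398 of 34422 features passed after quantile normalisation and 1 against the minimum change. For compound 6 against compound 3 the count of members was 1, in place of 0, with array weights, where 133 of 34422 features passed. A minimum change tests a stricter question by construction; the cause of the other changes was not tested.

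Signs turned as follows. Median scaling gave Nes after induction -0.0033, and for compound 6 against DMSO Ina 0.0167 and Prph 0.0133. Quantile normalisation gave Krt18 -0.0131 in the latter comparison, and cyclic loess gave Nes after induction -0.0079. Array weights gave Vim after induction -0.0428, for compound 3 against DMSO Nefl 0.0166 and Nefm -0.0046, and for compound 6 against DMSO Ina 0.0117 and Prph 0.073. With single arrays left out, the lowest and highest values were -0.0067 and 0.1083 for Vim after induction, -0.0717 and 0.0033 for Nefl and -0.015 and 0.19 for Nefm with compound 3 against DMSO, and -0.0467 and 0.0283 for Nefl between the compounds. For compound 6 against DMSO they were -0.0283 and 0.0167 for Ina, -0.075 and 0.0317 for Prph, -0.1483 and 0.0117 for Nefm, -0.115 and 0 for Krt8 and -0.0533 and 0.1317 for Krt18.

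With the replicate number as a block Nefh was added to the induction calls (-0.16, adjusted p = 0.0447), as it also was under 3 other alternatives, and the member counts of the other comparisons were as reported. Same-numbered arrays correlated in their deviations from the group means from -0.17 to 0.45, with 10 of 18 pairs over 0.1, against 6 of 36 pairs with different numbers. The best partner carried the same number in 20 of 36 cases. All 3 same-numbered pairs lay over 0.1 only between non-induced cells and compound 3 (0.406, 0.263 and 0.109), where the block left 7 members called; between the other groups at least 1 pair lay at or under 0.1. The labels do not say what a number marks. Vim and Nefl lie close to the filter on low values, which limits the loss they can show.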
